A study of Mus musculus with 7 samples.

Results

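The SLC25 genes encode the mitochondrial carrier family. They were taken from the deposited gene table as the protein-coding rows named Slc25a followed by a number, which gave 45 of 26019 gene rows. The choice used the names only, so no measured value entered it. RNA was measured in mouse oocytes of the strain C57BL/6J, freed from secondary follicles (growing follicles in which layers of granulosa cells surround the oocyte) with collagenase and then Accutase, 5 oocytes to a library. The groups are wild type (WT, n = 4 libraries) and knockout (KO, n = 3 libraries), named from the sample titles. The series title and design text give the KO as Mfn2-/-, lacking mitofusin 2, a GTPase that fuses mitochondria, while the genotype label of the same samples reads Mfn1-/-. For age, the protocol states 8 weeks for both groups and the age label P1. The labels name no agent, and the sources used here do not say which cells lost the gene or by what driver, nor which mice went into which library. The design text counts 3 mice in each group, fewer than the 4 WT libraries, so by that count some WT libraries share a mouse. Here n counts libraries, and the SDs and p-values measure only the spread between them, which may be technical and may be smaller than that between mice.

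Mitochondrial carriers are small proteins that nearly all sit in the inner mitochondrial membrane, where each exchanges or co-transports a particular solute between the cytosol and the matrix. The family brings in ADP and phosphate for ATP synthesis and exports ATP. Other members carry the acids, amino acids, cofactors, nucleotides and iron that metabolism in the matrix needs. In the ovary the oocyte relies on its mitochondria to oxidise pyruvate that granulosa cells supply, and does little glycolysis of its own.

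The libraries held 6676076 to 8343915 reads in genes, and the deposited values are read counts divided by a size factor of 0.914 to 1.10, so a normalised count of 1 is about 1 read. Mfn2 was at 15.0 to 35.3 normalised counts in WT libraries and 4.55 to 7.66 in KO libraries (limma adjusted p = 0.00571), and Mfn1 at 258 to 340.2 and 308 to 347 (adjusted p = 0.499), so the libraries match the series title and not the genotype label. Oocyte markers were abundant in each library, for example 32430 to 82461 for the zona pellucida gene Zp3. KO 2 and KO 3 stood apart in the mean log2 level of granulosa markers (4.37 and 4.31, against 2.62 to 3.55 in the other libraries). KO 1, at 3.55, was also above all WT libraries (2.62 to 3.46). A fit with this mean as covariate can therefore hardly separate it from genotype. Inha, a granulosa hormone subunit, was at 395 in KO 2 and 338 in KO 3 against 54.5 in KO 1 and 11.9 to 66.7 in WT. Of 13 tested granulosa markers, 10 had a higher log2 value in KO and 3 a lower one, among them Cyp19a1 and Esr2, which limma called lower. The call of Esr2 was lost in edgeR (adjusted p = 0.0533) and in all but 1 of the 7 fits with a library left out (up to 0.2045). The median log2 fold change of the 13 was 1.48. The summed level of all 15 overlapped between the groups (1321 to 1553 in WT, 1192 to 1618 in KO). That sum leans on Esr2 (874 to 1119 in WT, 596 to 853 in KO), Nr5a2 and Cyp19a1. It therefore says little about the other markers. Blood, endothelial and theca or stroma lists had few reads, with the exceptions of Pecam1 and Tek in the endothelial list, and summed to 9.85 to 27.3 (blood and immune), 164 to 225 (endothelial) and 12.7 to 29.8 (theca and stroma).

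Among the carrier genes Slc25a13 was called lower in KO oocytes, and 0 were called higher. Slc25a13, which encodes the aspartate/glutamate carrier citrin, was 2.40-fold lower, from 86.4 ± 14.6 normalised counts (SD, n = 4) in WT to 36.0 ± 9.78 (SD, n = 3) in KO. Of the 45 carriers, 40 reached a value of 1 in 3 or more libraries and were tested, with limma on log2(value + 1) and p adjusted by Benjamini-Hochberg over all 19227 tested genes. "Called" means an adjusted p under 0.05. The 1 called carrier is 2.5% of those tested, against 6.71% of all tested genes (3.63% called lower and 3.09% called higher). Carriers with an unadjusted p under 0.05 numbered 6, or 15%, against 21.8% of all genes. Both limma shares were below those of all genes, a difference that was not tested. By edgeR on recovered reads, 8 of the 40 carriers had an unadjusted p under 0.05, against 4149 of all 19227 tested genes. The called carrier was again Slc25a13.

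The other 39 tested carriers did not pass, and for most of them the interval bounds the change. For 24 of the 39, the 95% interval of the log2 fold change lay wholly within a 2-fold change in either direction. The remaining 15 had intervals that reached 2-fold, with means of at most 95.4 normalised counts, while the 24 had means of at least 23.1. A positive log2 fold change was found for 29 of the 40 (72.5%, against 49.2% of all tested genes), with a median of 0.17 against -0.01. The carrier median was 0.08 without KO 2, 0.10 without WT 3 and 0.35 with the mean level of granulosa markers as covariate.

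**Figure D1:**
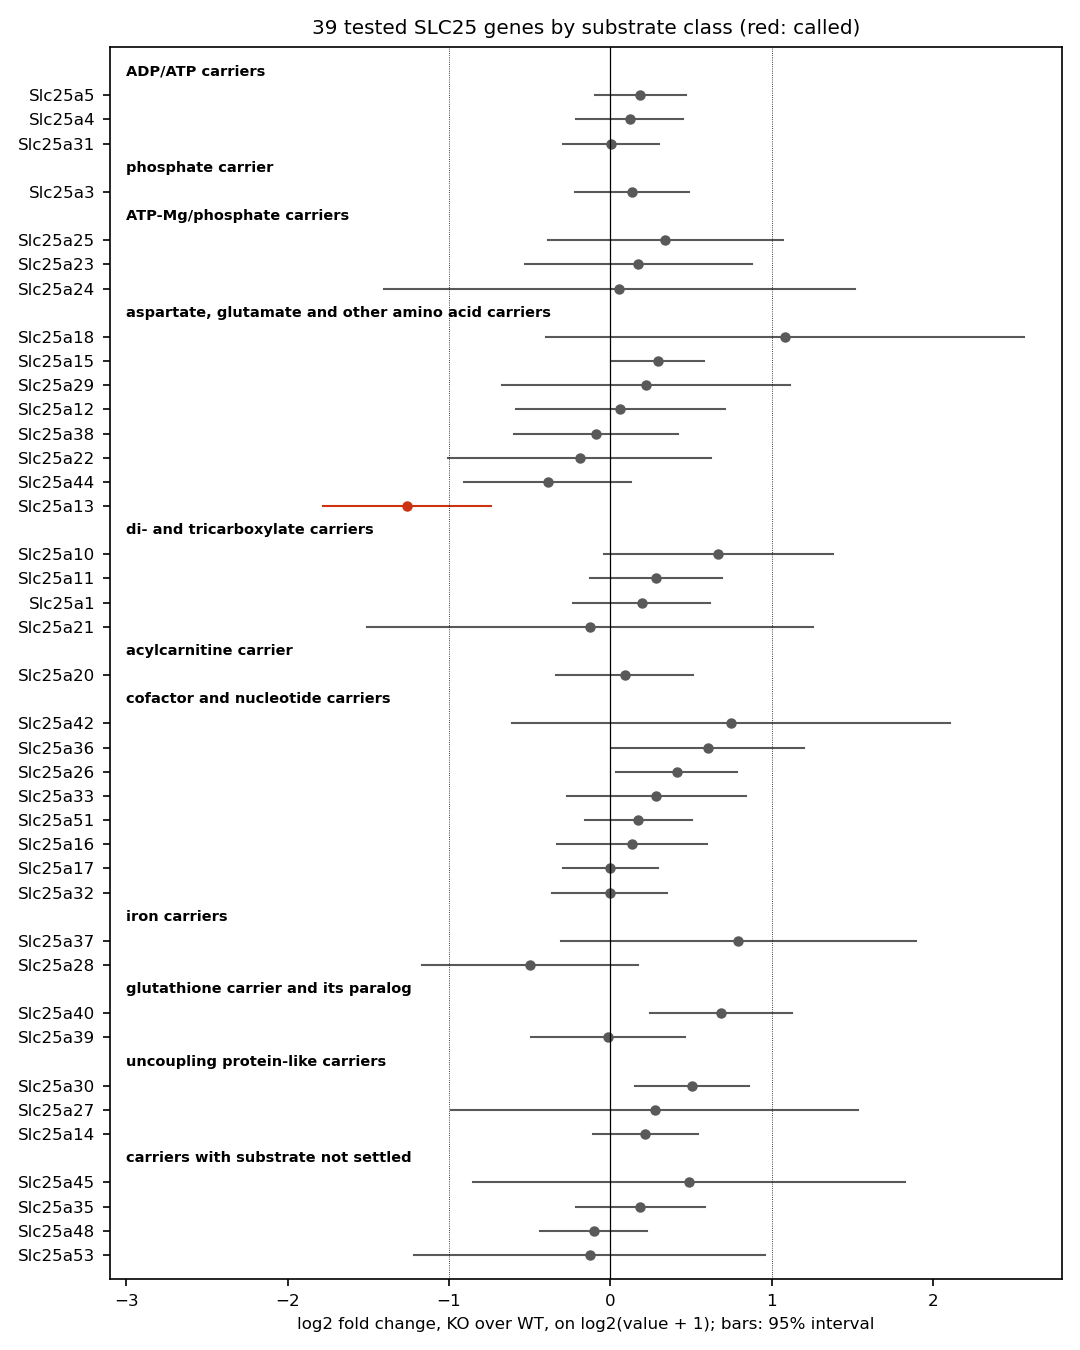
Log2 fold change of KO over WT (x axis) for 39 of the tested carrier genes, grouped by substrate class, with the 95% interval of the limma fit as bars and dotted lines at a 2-fold change. Slc25a13, in red, is the called gene. Its interval runs from -1.78 to -0.74.

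Summed over the 45 genes, the family held 11605 ± 986 normalised counts in WT (SD, n = 4) and 12706 ± 1244 in KO (SD, n = 3). This is 0.162% ± 0.00785 and 0.174% ± 0.0139 of all normalised counts. The libraries of the groups overlapped in both measures.

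Within the family the levels spanned more than 4 orders of magnitude. To compare genes with each other, each normalised count was divided by the length of the gene's principal mRNA in kb. On this scale 13 carriers averaged at least 100, 14 lay between 10 and 100, 8 between 1 and 10, and 10 below 1. Slc25a5, an ADP/ATP carrier, ranked first in each of the 7 libraries (1705 to 2694 per kb). Slc25a17, which serves the peroxisome rather than the mitochondrion and carries coenzyme A and related cofactors, ranked second in each (646 to 908 per kb). Below them came Slc25a31 (424 to 620.5), Slc25a3 (342 to 557) and Slc25a26 (264 to 490.0), whose ranges overlapped. Slc25a4 (203 to 323) was the sixth by the mean, and its range overlapped those of the next several genes. With length taken as all annotated exons of a gene, the first 3 were Slc25a5, Slc25a31 and Slc25a17, followed by Slc25a4, Slc25a48 and Slc25a1, so the order below Slc25a5 depends on the length used.

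**Figure D2:**
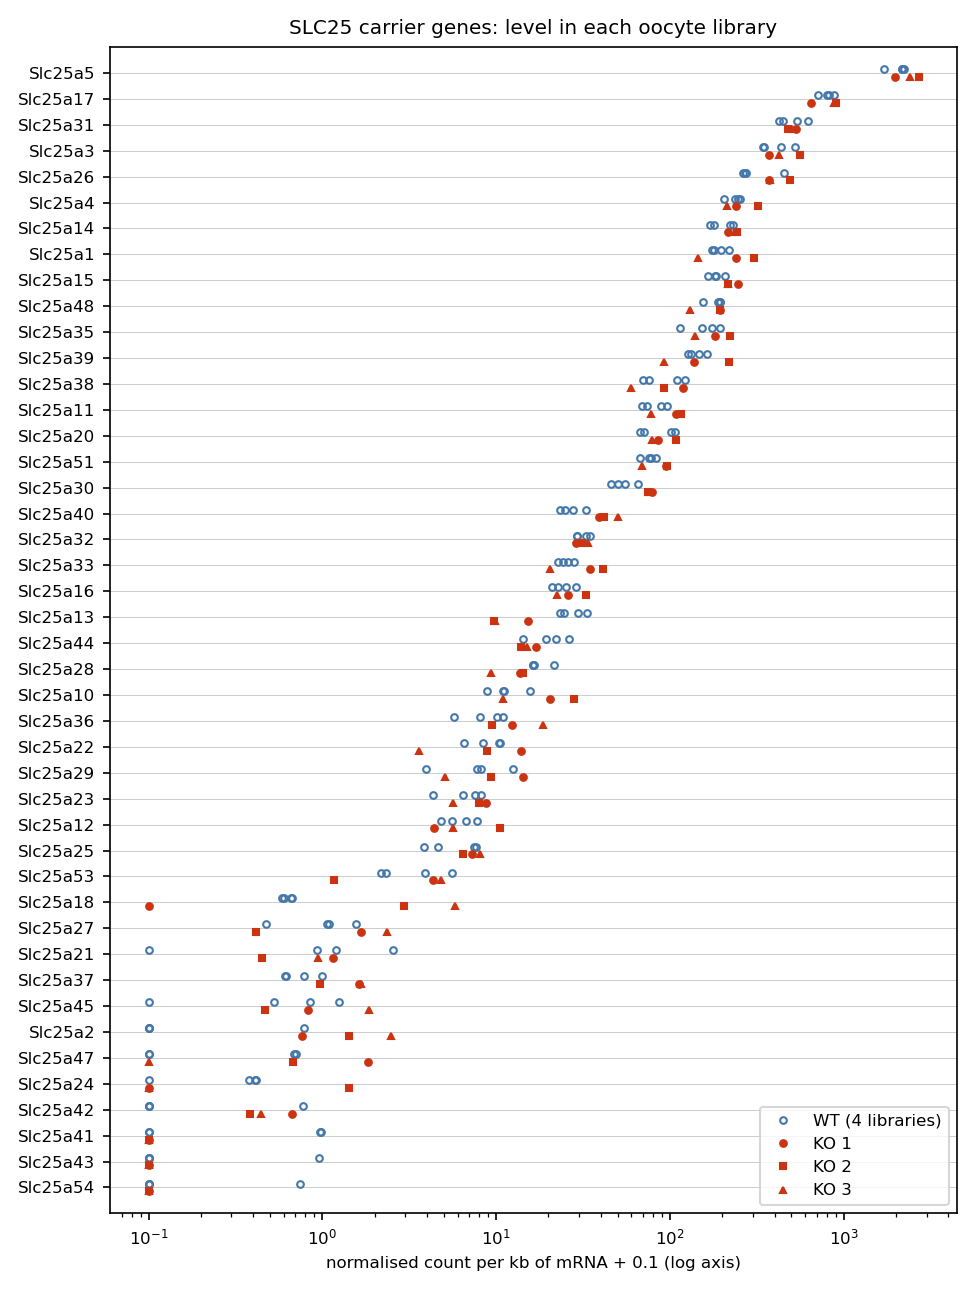
Normalised count per kb of mRNA plus 0.1 (log x axis) of 44 carrier genes in each library, ordered by their mean. Open circles are the 4 WT libraries, red symbols KO 1 to 3, and points at the left edge are libraries with 0 reads. Slc25a5 is at the top in each library, and the KO symbols of Slc25a13 lie to the left of its WT circles.

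The ADP/ATP carriers exchange cytosolic ADP for the ATP made in the matrix. The 3 genes were called neither higher nor lower. Slc25a5 (chromosome X, 36795651 to 36798807, GRCm38), the form common in dividing cells, had 2761, 2699, 2114 and 2675 normalised counts in WT 1 to 4 and 2431, 3341 and 2993 in KO 1 to 3. Its log2 fold change was 0.19 (SE 0.14; limma adjusted p = 0.462), and the groups overlapped. Slc25a31 (chromosome 3, 40708855 to 40726096), a form best known from germ cells, had 1147, 956, 902 and 1320.3 in WT and 1129, 1011 and 1080 in KO. The 3 KO values lay within the WT range, with a log2 fold change of 0.00 (95% interval -0.29 to 0.30). Slc25a4 (chromosome 8, 46206797 to 46211284), the heart and muscle form, had 454, 489.9, 392 and 474 in WT and 461, 622 and 411 in KO, with KO 2 above and the other KO libraries within the WT range. Of the 75-base stretches of Slc25a5 transcripts 19.8% also occur in 6 other genes, first among them the processed pseudogene Gm5560, so its counts are less certain than those of Slc25a31, which shares 0%.

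The make-up of this group varied little between libraries. Per kb of mRNA, Slc25a5 made up 73.5% ± 1.78 of the 3 genes in WT (SD, n = 4) and 75.3% ± 3.05 in KO (SD, n = 3). Slc25a31 made up 18.1% ± 2.01 and 16.4% ± 2.92, and Slc25a4 8.39% ± 0.467 and 8.28% ± 1.29. The differences were smaller than the SD of the KO libraries.

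**Figure D3:**
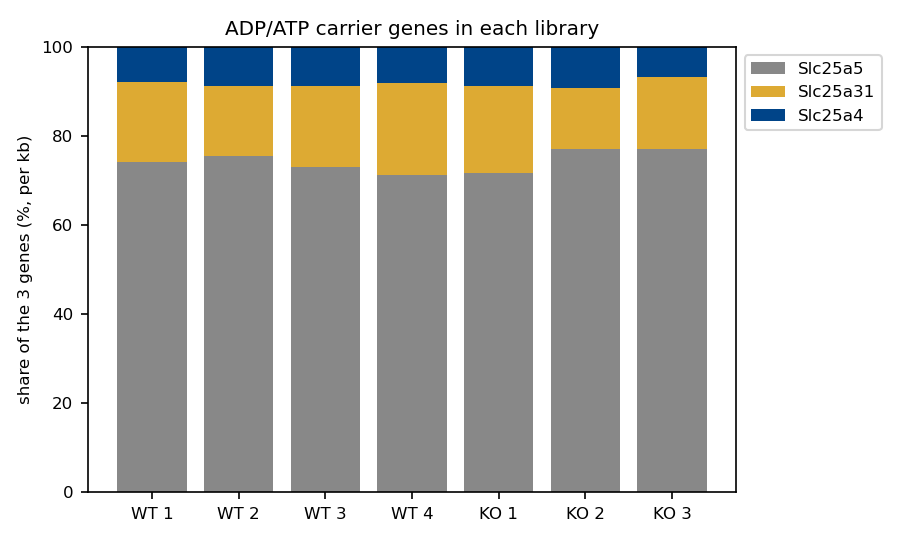
Share of each ADP/ATP carrier gene in the sum of the 3 (y axis, percent, per kb of mRNA) in the 7 libraries (x axis). Slc25a5 takes 71.3% to 77.1% of each bar, Slc25a31 13.6% to 20.5% and Slc25a4 6.82% to 9.25%.

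Slc25a3 (chromosome 10, 91116574 to 91124059) brings phosphate into the matrix for ATP synthase. It had 702, 560.2, 551 and 842 normalised counts in WT and 600.5, 898 and 684 in KO, overlapping groups with a log2 fold change of 0.13 (95% interval -0.22 to 0.49). The ATP-Mg/phosphate carriers, which adjust the adenine nucleotide pool of the matrix, were low. Slc25a23 and Slc25a25 lay between 12.4 and 29.1, and Slc25a24 and Slc25a41 totalled 8 and 2 reads over the 7 libraries. Of the 4 genes 3 were tested, and none was called by limma, edgeR or DESeq2, nor had any an unadjusted p under 0.05 in the limma fit.

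The aspartate/glutamate carriers export aspartate from the matrix in exchange for glutamate, are stimulated by cytosolic calcium, and form part of the malate-aspartate shuttle that moves reducing equivalents into mitochondria. Slc25a13 (ENSMUSG00000015112.15; GRCm38 chromosome 6, 6041218 to 6217173, minus strand) had 72.5, 76.7, 92.5 and 104 normalised counts in WT 1 to 4 and 47.2, 30.0 and 30.6 in KO 1 to 3. All KO values were lower than the lowest WT value, with KO 1 nearest to WT. By limma the gene changed by -1.26 (SE 0.25) on the log2 scale, with an adjusted p of 0.00444. The counts rest on 76, 72, 99 and 96 reads in WT and 52, 33 and 28 in KO, and 0% of the gene's 75-base stretches occur in another gene's transcripts. Less RNA in each oocyte and a changed number of expressing cells cannot be told apart in pooled libraries.

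Leaving out any 1 of the 7 libraries did not end the call of Slc25a13 (adjusted p 0.00149 to 0.0228). It was lost without both KO 2 and KO 3 (log2 fold change -0.84; adjusted p = 0.295), which leaves KO 1 alone and assumes that it varies like WT, and with the mean level of granulosa markers as covariate (-0.76; 0.853). In the latter fit 2 genes in the whole table were called. The covariate was higher in each KO library (3.55 to 4.37) than in each WT library (2.62 to 3.46). That fit can therefore hardly tell it from genotype. The call of Slc25a13 was also lost in a limma fit without intensity trend or robust variance (-1.26; 0.0613), which called 106 genes in all.

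The paralog Slc25a12 (chromosome 2, 71271063 to 71367749, minus strand), or aralar, catalyses the same exchange. It had 41.9, 49.0, 29.9 and 34.7 normalised counts in WT and 27.3, 66.4 and 35.01 in KO, with KO 2 the highest and KO 1 the lowest of all 7. Its log2 fold change of 0.06 had a 95% interval of -0.59 to 0.71. Per kb of mRNA, Slc25a13 averaged 27.7 in WT and 11.5 in KO, and Slc25a12 6.12 and 6.75. The log2 ratio of Slc25a13 to Slc25a12 within a library was 1.14 ± 0.51 in WT (SD, n = 4) and -0.18 ± 0.95 in KO (SD, n = 3). KO 1, at 0.77, lay inside the WT range of 0.64 to 1.60, and KO 2 and KO 3 below it. The difference of -1.32 did not pass (2-sided exact permutation test, p = 0.0571, adjusted over 10 paralog pairs 0.286). The smallest p the 35 splits allow is 0.0286, which becomes 0.286 when a pair alone reaches it. No pair could therefore pass alone after adjustment. A different change in the 2 paralogs was not shown, and the adjusted test cannot decide it. Slc25a12 overlaps Gm13641, and the libraries mark no strand.

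The sequences before the starts of both genes are shown because these paralogs carry the same solutes. Only Slc25a13 was called, but a different change in the 2 was not shown. A link between these sequences and the levels was not tested. They are the 250 bases upstream of the RefSeq start (GRCm38.p6), on the gene's strand, at chr6:6217174-6217423 for Slc25a13 and chr2:71367756-71368005 for Slc25a12. Capitals mark matches to any of 4 motifs searched on both strands.
Slc25a13: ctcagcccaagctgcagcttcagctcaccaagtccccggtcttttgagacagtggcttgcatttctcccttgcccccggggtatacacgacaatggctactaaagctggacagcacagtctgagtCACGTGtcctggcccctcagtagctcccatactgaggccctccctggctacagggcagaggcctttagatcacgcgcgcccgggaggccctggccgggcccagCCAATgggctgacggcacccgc
Slc25a12: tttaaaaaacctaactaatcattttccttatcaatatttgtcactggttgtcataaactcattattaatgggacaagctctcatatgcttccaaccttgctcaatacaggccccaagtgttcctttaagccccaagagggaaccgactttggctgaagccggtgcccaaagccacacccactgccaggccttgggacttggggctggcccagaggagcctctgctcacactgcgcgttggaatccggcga
The motifs were the E-box CACGTG, the ETS core CCGGAAG, the NRF1 core GCATGCGC and the CCAAT box, and no matches overlap in these windows. The window of Slc25a13 held an E-box starting 125 bases and a CCAAT box starting 22 bases before the gene's start, and that of Slc25a12 held none of the 4. Its G and C content was 62.8% against 49.6%. Among 32851 promoter windows of this length 6.02% held the E-box, 6.91% the ETS core, 2.26% the NRF1 core and 33.8% the CCAAT box. For 35 of the 45 carriers the table had 45 windows, of which 8, 6, 2 and 20 held them. The 7 genes with an E-box were Slc25a1, Slc25a13, Slc25a14, Slc25a15, Slc25a31, Slc25a33 and Slc25a36. Of these 7, 1 was called, against 1 of the 40 tested carriers and 6.71% of all tested genes. Whether the E-box goes with the calls was not tested. A match describes the letters only and shows no binding.

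**Figure D4:**
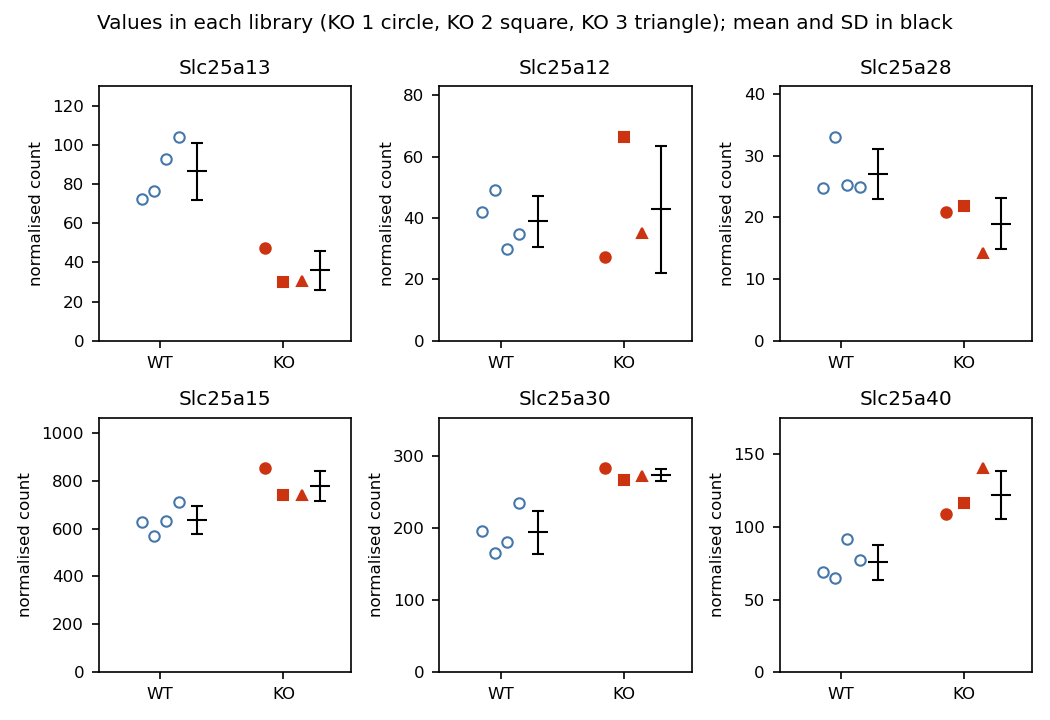
Normalised count (y axis, from 0) in each WT and KO library for Slc25a13, its paralog Slc25a12, and the other 4 carriers whose groups did not overlap, with mean and SD in black. KO libraries of Slc25a13 and Slc25a28 lie below all WT libraries, and those of Slc25a15, Slc25a30 and Slc25a40 above. Of these genes only Slc25a13 was called.

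Groups that did not overlap were found for 5 of the 40 tested carriers (12.5%), against 19.2% of all tested genes. Slc25a13 and Slc25a28 had all KO libraries below WT, and Slc25a40, Slc25a30 and Slc25a15 had all of them above. The nearest to the threshold was Slc25a40 (chromosome 5, 8422850 to 8454797), a paralog of the glutathione carrier. It had 68.6, 65.0, 91.6 and 76.9 normalised counts in WT and 109, 116 and 140.0 in KO, with a log2 change of 0.69 (SE 0.21) and a limma adjusted p of 0.0536. DESeq2 called it (adjusted p = 0.0366), as did limma over genes with at least 10 in 3 libraries (0.0444). Slc25a39 itself, which brings glutathione into mitochondria, had 213 to 275 in WT and 231, 368 and 155 in KO, with KO 2 above and KO 3 below the WT range. Its log2 fold change was -0.01 (95% interval -0.49 to 0.46). The log2 ratio of Slc25a40 to Slc25a39 differed by 0.70 between the groups (exact permutation test, adjusted p = 0.429).

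Slc25a30 (chromosome 14, 75760117 to 75787037) resembles the uncoupling proteins, which let protons back into the matrix. It had 196, 165, 180.4 and 235 normalised counts in WT and 283, 266 and 272 in KO, a narrow KO range above all WT values. The log2 fold change of 0.50 (SE 0.17) had a limma adjusted p of 0.0775. Its relatives Slc25a14, with 300.0 to 408 in WT and 382 to 427 in KO, and Slc25a27, at 0.909 to 6.56 over all libraries, overlapped between the groups. The summed level of the 3 genes was 483 to 625 in WT and 669 to 695 in KO. That sum does not overlap, and Slc25a14 and Slc25a30 supply nearly all of it. How often sums of other gene sets fail to overlap was not examined.

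Among the other amino acid carriers, Slc25a15 (chromosome 8, 22375551 to 22398597), which exchanges ornithine and citrulline, had 625, 569.8, 631 and 711 normalised counts in WT and 850.3, 739 and 741 in KO. All KO libraries were higher, with a log2 change of 0.29 (SE 0.14) and a limma adjusted p of 0.214. Slc25a44, a carrier of branched-chain amino acids, had 49.6 to 91.6 in WT and 48.2 to 59.1 in KO (log2 fold change -0.39; adjusted p = 0.387). Slc25a38, which supplies glycine for heme synthesis, had 126 to 219 and 106 to 213. The glutamate carrier Slc25a22 lay at 18.1 to 29.2 in WT and ran from 9.85 in KO 3 to 39.1 in KO 1. Slc25a29, for basic amino acids, lay at 7.63 to 28.2 over all libraries. The second glutamate carrier, Slc25a18, had 0.935 to 1.08 in WT, 0 in KO 1, 5.45 in KO 2 and 10.9 in KO 3, the libraries with more Inha. It was called without KO 1 (log2 fold change 2.13; adjusted p = 0.0432). Whether granulosa RNA has a part in its level was not tested, and the libraries mark no strand while Slc25a18 overlaps Atp6v1e1.

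The carriers of di- and tricarboxylates link the citric acid cycle to the cytosol, and 0 of 4 were called by limma, edgeR or DESeq2, with 0 at an unadjusted p under 0.05 in the limma fit. Slc25a1, which exports citrate for lipid synthesis, had 329, 366, 299 and 290.3 normalised counts in WT and 399.7, 509 and 242 in KO. KO 1 and KO 2 lay above and KO 3 below the WT range. Slc25a11, the oxoglutarate/malate partner of the aspartate/glutamate carriers in the shuttle, had 118 to 165 and 133 to 197 (log2 fold change 0.28, 95% interval -0.13 to 0.69). Slc25a10, the dicarboxylate carrier, had 17.8 to 31.4 in WT and 40.9, 56.4 and 21.9 in KO (0.67; adjusted p = 0.26). Slc25a21 stayed at or below 6.39. Slc25a20, which brings acylcarnitines in for fatty acid oxidation, had 120.4 to 189.5 in WT and 141 to 194 in KO, with a 95% interval of -0.34 to 0.51.

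The 9 cofactor and nucleotide carriers summed to 2992 to 3600.3 normalised counts in WT and 3303 to 3895 in KO. None of them was called by limma without a block, edgeR or DESeq2 with all libraries. In the limma fit 2 of the 9 had an unadjusted p under 0.05, against 21.8% of all tested genes. The peroxisomal Slc25a17 (chromosome 15, 81318911 to 81360812) had 1520, 1424, 1221 and 1387 in WT and 1113, 1565.5 and 1525 in KO, a log2 fold change of 0.00 (95% interval -0.29 to 0.29). Slc25a26 (chromosome 6, 94500331 to 94604672), which brings in the methyl donor S-adenosylmethionine, had 522, 508, 525 and 868 in WT and 712, 942 and 721 in KO. WT 4 lay within the KO range and the other WT libraries below it. The log2 fold change was 0.41 (SE 0.18; limma adjusted p = 0.185), and 0.60 without WT 4 (adjusted p = 0.0343).

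Slc25a36, a pyrimidine nucleotide carrier, had 29.2 to 57.0 normalised counts in WT and 63.6, 49.1 and 96.3 in KO (log2 fold change 0.60; limma adjusted p = 0.220). Its relative Slc25a33 lies 1839 kb from Mfn2 on chromosome 4, and had 42.6 to 53.1 in WT and 65.4, 77.3 and 38.3 in KO (0.28; adjusted p = 0.586). Slc25a51, for NAD, had 300.0 to 369 and 307 to 425. Slc25a32, for folate, had 171 to 205 and 169 to 200.2. For both, the 95% intervals lay between -0.36 and 0.51. Slc25a16, linked to coenzyme A, lay at 65.4 to 103 over all libraries. Slc25a42, a coenzyme A carrier, totalled 6 reads.

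The iron carriers, or mitoferrins, bring iron in for heme and iron-sulfur clusters. Slc25a28 (chromosome 19, 43663801 to 43674881), the form of most tissues, had 24.8, 33.0, 25.2 and 24.9 normalised counts in WT and 20.9, 21.8 and 14.2 in KO. All KO libraries were lower, with a log2 change of -0.50 (SE 0.32) and a limma adjusted p of 0.392. Slc25a37, the form of developing red cells, had 2.86, 2.13, 3.74 and 2.17 in WT and 6.36, 3.64 and 6.56 in KO, with KO 2 just within the WT range. Its log2 fold change was 0.80 (SE 0.53; adjusted p = 0.412). The ratio of Slc25a37 to Slc25a28 was higher in each KO library than in each WT library, by a log2 difference of 1.29. Its 2-sided exact permutation p was 0.0286, the smallest possible, and 0.286 adjusted over the 10 pairs. Slc25a37 rests on few reads, and with a pseudocount of 5 the difference was 0.86.

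The 10 pairs of paralogs were compared within libraries because a ratio inside a library does not depend on its size factor, apart from the pseudocount. None passed after adjustment over the pairs (exact permutation test, adjusted p 0.286 to 0.83), and with so few libraries no pair could pass alone. In 2 of the 10 pairs the ratios did not overlap between the groups, those of the iron carriers and of Slc25a30 to Slc25a14. Among single tested genes 19.2% did not overlap. How often ratios of other gene pairs fail to overlap was not examined. For the 3 pairs of ADP/ATP carriers the SD over WT libraries was 0.08 to 0.22 and the group difference -0.18 to 0.06.

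**Figure D5:**
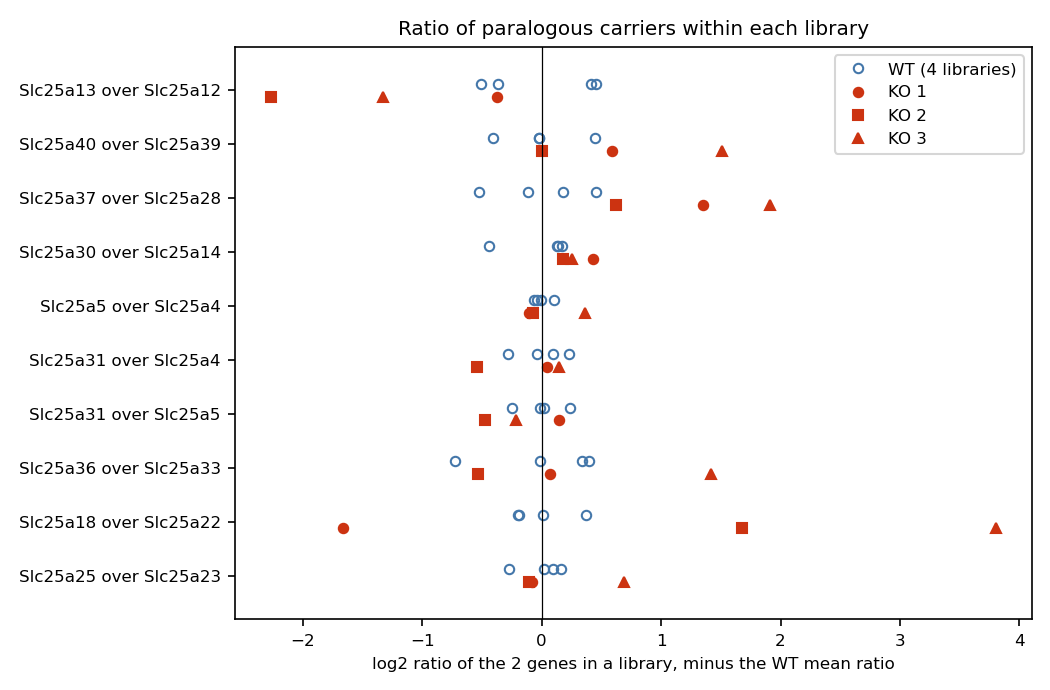
Log2 ratio of 2 paralogous carriers in each library minus the WT mean of that ratio (x axis), for 10 pairs. Open circles are WT libraries and red symbols KO libraries. For Slc25a13 over Slc25a12, KO 2 and KO 3 lie left of all WT libraries while KO 1 is among them, and for Slc25a37 over Slc25a28 all KO libraries lie to the right.

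Carriers whose substrate was treated as not settled included 2 well-expressed genes. Slc25a48 (chromosome 13, 56438355 to 56474239) had 519.6, 640.1, 652 and 656 normalised counts in WT and 654, 653 and 439.8 in KO, with KO 3 the lowest. Its log2 fold change was -0.10 (95% interval -0.43 to 0.23). Slc25a35, which overlaps Rangrf and shares 22.3% of its 75-base stretches with other genes, had 209 to 355 and 256 to 405. Slc25a45 and Slc25a53 did not exceed 4.38 and 14.0. The 5 carriers too low to test were Slc25a2, Slc25a41, Slc25a43, Slc25a47 and Slc25a54, with 7, 2, 1, 6 and 1 reads over all libraries. A change in them was not detectable at this depth. Of the 5, 4 lie near another carrier gene. Slc25a43 (1 read) lies 18.4 kb from Slc25a5, Slc25a41 2.06 kb from Slc25a23, Slc25a47 0.163 kb from Slc25a29, and Slc25a54 6.46 kb from the low Slc25a24.

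Carriers are made in the cytosol and inserted by the receptor Tomm70a, small chaperones between the membranes and the TIM22 complex. Of 7 tested genes of this route, 0 were called by limma, edgeR or DESeq2. In the limma fit 2 of the 7 had an unadjusted p under 0.05, against 21.8% of all tested genes. Timm22, the pore of that complex, had 49.0 to 74.7 normalised counts in WT and 66.3, 90.9 and 123.6 in KO (log2 fold change 0.64; limma adjusted p = 0.127, and 0.0444 without KO 1). Timm10b, one of the small chaperones, had 1052 to 1152 and 831, 896 and 1020, with all KO libraries lower (-0.28; adjusted p = 0.207). The family's members under other names were not called either. Among them Mtch2, an insertase of the outer membrane, had 68.2 to 96.3 and 62.7 to 108 (adjusted p = 0.618), and Ucp2, an uncoupling protein, had 1.07 to 23.8 in WT and 4.54, 68.2 and 32.8 in KO (adjusted p = 0.423). Of 9 tested inner membrane carriers of other families 0 were called by limma, edgeR or DESeq2, with 0 at an unadjusted p under 0.05 in the limma fit. Their summed level, with the untested Sfxn3, was 1499 to 1583 in WT and 1295 to 1397 in KO, with all KO libraries lower. How often sums of other gene sets do so was not examined. The smallest p belonged to Mpc2, a subunit of the pyruvate carrier, at 592 to 657 in WT and 445, 492 and 560.1 in KO (-0.29; adjusted p = 0.230), and to Sfxn4 of the sideroflexins, at 42.1 to 72.5 and 32.7 to 46.4 (-0.50; adjusted p = 0.288).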

How the data were processed

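RNA of 4 WT and 3 KO libraries (5 oocytes each, Smart-Seq2 with Nextera XT, paired 75-base reads that mark no strand, per the labels' protocols) was aligned to GRCm38 (mm10). The submitters' processing notes name cutadapt, FastQC, STAR, DESeq and DESeq2, with no roles, and no read counter. The deposited values are a signal, the read count of each gene over its library's size factor: 99.96% to 100% of them came out as whole reads within 0.05 when multiplied by it. Replicates were not pooled by the authors. The table has 26019 gene rows, of which 25972 matched GENCODE M21, and 0 from the mitochondrial chromosome. Libraries held 6676076 to 8343915 reads in genes.

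The 19227 genes that reached 1 in 3 or more libraries were tested on log2(value + 1) with limma 3.58.1 (R 4.3.3; intensity trend, robust variance), so fold changes of low genes are understated. P-values were adjusted by Benjamini-Hochberg over all of them, with a threshold of 0.05. Counts were simulated for this comparison (18588 genes in that step, 200 changed), with the changed genes drawn from those with a mean of at least 20. On these the fit called 64% of changes of 1 and 97% of changes of 2 on the log2 scale. Of its 166 calls, 5 were unchanged genes. The shares do not hold for carriers with lower means. On the recovered reads edgeR 4.0.16 called 1255 genes and DESeq2 1.42.0 called 1474, against 1291 by limma. The other alternatives were TMM scaling, pseudocounts of 0.5 and 5, no filter, a minimum of 10, no trend or robust variance, a replicate block, the mean log2 level of granulosa markers as a covariate, and leaving out libraries. Ratios of 10 paralog pairs were added with an exact permutation test with 35 possible arrangements of the libraries.

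Levels per kb use the longest principal transcript, and shared sequence was counted as 75-base stretches found in another gene's transcripts. Promoter sequences are RefSeq's (GRCm38.p6).

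Values in every library are given for carriers that were called, that had an unadjusted p under 0.05 and no overlap, the 6 highest per kb, and the ADP/ATP, phosphate and iron carriers. From the other lists the text names the called genes or else the 2 with the smallest p. Slc25a10, Slc25a12, Slc25a1, Slc25a18, Slc25a33, Slc25a36, Slc25a48, Mtch2 and Ucp2 are given in more detail after their values were seen. The carriers and lists were chosen with earlier results of these data known. Another row of the same name pattern, and the values of 1 carrier that stays in the counts, are not reported here, and Slc25a34 was not analysed here.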

Additional observations from a re-analysis of the deposited data

Results flagged for a closer look

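In 51 groups of 4 WT values, the highest or lowest library was set against the range of the group by Dixon's criterion. For independent, normally spread values chance alone marks about 1 group in 20, and 7 were marked. All groups use the same 4 libraries, and the share marked among all genes was not examined. The count is therefore not read as an excess. WT 4 was far above the other WT libraries for Slc25a26 (868 normalised counts) and for Slc25a42 (2.17, with the others at 0). The highest library stood apart for Slc25a28 (33.0 in WT 2, with the other WT libraries at 24.8 to 25.2). For Mpc2 it was WT 1 (657, with the others at 592 to 593). The criterion sets the gap against the range of the group, not against the level. The lowest library stood apart for Slc25a5 (2114 in WT 3), Slc25a48 (519.6 in WT 1) and Slc25a24 (0 in WT 3). The WT values of Slc25a42 and Slc25a24 rest on 0 to 2 reads each.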

How the results depend on the processing

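The 1291 genes called in all became 106 without trend and robust variance, 2 with the granulosa covariate and 98 without both KO 2 and KO 3. They ranged from 594 (without WT 3) to 1767 (without KO 1) when 1 library was left out, with 728, 710, 604 and 821 without WT 1, WT 2, KO 2 and KO 3. The 1 called carrier became 2 with DESeq2 and with a minimum of 10 (adding Slc25a40), 2 with the replicate block (adding Slc25a26), and 0 without trend and robust variance, with the granulosa covariate and without both KO 2 and KO 3. It was 1 to 2 with 1 library left out, Slc25a26 being added without WT 4 and Slc25a18 without KO 1. The granulosa covariate was higher in each KO library than in each WT library, so that fit can hardly tell it from genotype. The cause of these changes in the calls was not tested. Mfn2 likewise lost its call without trend and robust variance (adjusted p = 0.058), with the covariate (0.79) and without both KO 2 and KO 3 (0.158).

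The labels do not say whether the replicate numbers pair the libraries. Deviations of same-numbered libraries from their group means correlated at -0.12, 0.026 and 0.022. With so few libraries in a group, this does not exclude a pairing. With a replicate block 1022 genes were called and the log2 fold change of Slc25a26 was 0.60, as without WT 4, which has no partner. The block turned the sign of Slc25a32 (0.045) and Slc25a39 (0.0052).

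Other sign changes were in genes that were not called in the limma fit of all libraries. The log2 fold change turned in edgeR for Slc25a22 (0.0052), Slc25a31 (-0.0063) and Slc25a39 (0.075), in DESeq2 for Slc25a31 (-0.011) and Slc25a39 (0.071), and with a pseudocount of 0.5 for Slc25a24 (-0.10). With the granulosa covariate it turned for Slc25a3 (-0.20), Slc25a5 (-0.036), Slc25a12 (-0.37), Slc25a17 (-0.34), Slc25a18 (-0.95), Slc25a20 (-0.21), Slc25a21 (1.10), Slc25a22 (1.03), Slc25a24 (-0.64), Slc25a38 (0.69), Slc25a39 (0.10), Slc25a44 (0.20), Slc25a45 (-0.35), Slc25a48 (0.24), Slc25a53 (0.34), Mtch2 (-0.49) and Ucp2 (-2.33). Without both KO 2 and KO 3 it turned for Slc25a3 (-0.12), Slc25a5 (-0.068), Slc25a12 (-0.47), Slc25a17 (-0.31), Slc25a21 (0.27), Slc25a22 (0.65), Slc25a38 (0.37), Slc25a48 (0.090), Slc25a53 (0.39), Mtch2 (-0.28) and Ucp2 (-0.36). With 1 library left out these ranges crossed 0: Slc25a1 -0.041 to 0.49, Slc25a3 -0.029 to 0.26, Slc25a4 -0.049 to 0.25, Slc25a12 -0.30 to 0.33, Slc25a16 -0.013 to 0.26, Slc25a17 -0.087 to 0.16, Slc25a20 -0.044 to 0.20, Slc25a21 -0.66 to 0.30, Slc25a22 -0.61 to 0.33, Slc25a23 -0.0090 to 0.36, Slc25a24 -0.20 to 0.47, Slc25a27 -0.13 to 0.86, Slc25a29 -0.12 to 0.60, Slc25a31 -0.078 to 0.11, Slc25a32 -0.064 to 0.057, Slc25a38 -0.32 to 0.18, Slc25a39 -0.33 to 0.29, Slc25a48 -0.20 to 0.089 and Slc25a53 -0.45 to 0.45. Carriers with few reads have wide intervals, and a change in the 5 untested ones was not detectable.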

Other observations

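A few genes near the family were higher in KO 2 and KO 3, the libraries with the highest mean log2 level of granulosa markers, than in KO 1, and were singled out after their values were seen. The sideroflexin Sfxn3, too low to test, had 0 to 0.953 normalised counts in WT, 0 in KO 1, 7.27 in KO 2 and 6.56 in KO 3. Ucp2 had 4.54, 68.2 and 32.8 in KO 1 to 3, and WT 1, at 23.8, was the highest WT library for Ucp2 as it was for Inha (66.7). The mean log2 level of the granulosa markers was 3.55, 4.37 and 4.31 in KO 1 to 3 and 2.62 to 3.46 in WT. The part of granulosa RNA in these levels was not tested.

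Of 13 tested oocyte markers 1 was called by limma, against 6.71% of all tested genes. An unadjusted p under 0.05 was found for 5 of the 13, against 21.8% of all tested genes. Of these, Nlrp5 was not called (log2 fold change 1.01; limma adjusted p = 0.0976). It had 9108 to 15964 normalised counts in WT and 16810, 33914 and 29642 in KO. The called marker was Ddx4, a germ cell RNA helicase that was higher in KO. Ddx4 had 594 to 988 normalised counts in WT and 1305, 2337 and 2070 in KO (log2 fold change 1.26; limma adjusted p = 0.00287). The call was lost without trend and robust variance (adjusted p = 0.0794), with the granulosa covariate (log2 fold change 0.79; 0.744) and without both KO 2 and KO 3 (0.76; 0.16).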
